A study of Mus musculus with 33 samples.

Results

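Promoter H3K4me3 was followed in mouse cells without Uhrf1 from the undifferentiated stem cell to week 3 of differentiation. The 4 Uhrf1 KO libraries described here, out of 33 samples in the series, are ChIP-seq for H3K4me3 in E14 embryonic stem cells (mESC) and in embryoid bodies (EBs) grown from them and taken at week1, week2 and week3. All 4 carried the Uhrf1 KO genotype, and the 4 libraries labelled WT, the same stages of E14 cells with Uhrf1, are used only for comparison. The labels give 1 library per genotype and stage and do not say whether the KO line is a single clone, the mESC were kept with leukemia inhibitory factor on gelatin or on MEF feeder cells, and an EB is a mixture in which several cell types arise. Since each stage is 1 library, stages were compared without a replicate check and no p-value is given, and the 95% intervals, by Wilson's method for shares and Newcombe's for differences of shares, cover counting error over promoters or domains only.

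H3K4me3, trimethylation of lysine 4 of histone H3, marks the promoters of active genes and of many genes that are poised for activation. It is laid down by the COMPASS family of methyltransferases, which includes Setd1a, and CpG-rich promoters attract the mark even where transcription is low. Uhrf1 binds hemi-methylated DNA and recruits Dnmt1, the enzyme that copies DNA methylation onto new strands, and methylated DNA and H3K4me3 are rarely found together. In stem cells many developmental promoters carry H3K4me3 together with H3K27me3, the mark of Polycomb repression, a state called bivalent. As stem cells form EBs, pluripotency genes are normally shut down and genes of the germ layers are switched on.

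A promoter was called marked when a deposited H3K4me3 domain lay within 2 kb of the start of a protein-coding gene, and 22367 gene starts of the mm9 assembly were examined. In Uhrf1 KO cells 12740 promoters were marked in mESC and 12754, 14422 and 14721 at weeks 1, 2 and 3. These are 57.0%, 57.0%, 64.5% and 65.8% of all promoters. The set was far from constant, as 1275 promoters of mESC were unmarked at week 1 and 1289 others were marked there. Across the 4 lists 11397 promoters (51.0%) were marked at every stage, called always marked here, and 6851 (30.6%) at none. Marks that were present first and absent to the end, called lost, were found at 297 promoters (1.33%). Marks that were absent first and present to the end, called gained, were found at 2300 promoters (10.3%). The balance of lost and gained turned with lists of equal number, each cut to its top-scoring domains, where 1640 promoters were lost and 662 gained. The remaining 1522 promoters (6.80%) switched more than once, and 743 of them (3.32% of all promoters) shared a single course, marked in mESC, unmarked at week 1 and marked again at weeks 2 and 3. Of the gained promoters 1079 (4.82% of all promoters) were marked at all 3 weeks, 791 (3.54%) at weeks 2 and 3 and 430 (1.92%) at week 3, and of the lost promoters 269 (1.20% of all) were marked in mESC only.

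**Figure D1:**
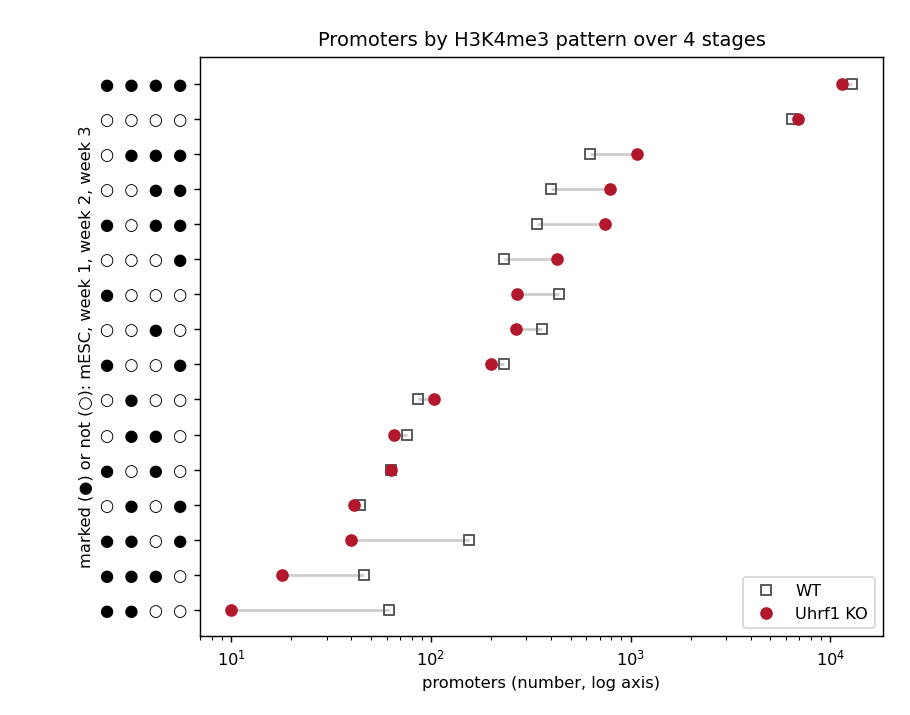
Number of promoters (log axis) with each of the 16 possible courses of H3K4me3 over mESC, week 1, week 2 and week 3, where a filled circle in the row name stands for a marked stage. Red points are Uhrf1 KO and open squares WT, 1 library per stage. The KO points lie right of the WT squares for the gained courses and for the course with a gap at week 1, at 1079 against 623, 791 against 398, 430 against 232 and 743 against 339 promoters.

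The 4 lists differed in how they were cut, and this bears on every count. The mESC list held 11509 domains in bins of 1300 bp with a median length of 10.4 kb, whereas the EB lists held 19041, 32702 and 28789 domains in bins of 350 to 400 bp with medians of 2.80 to 3.60 kb. Together the domains covered 188 Mb in mESC and 73.4, 154 and 166 Mb at weeks 1, 2 and 3, so the week 1 list was the narrowest. By the study's sequencing summary the mESC library was the shallowest of the 4 and the week 3 library the deepest, and the part of depth and of bin length in the counts was not tested. Because bins differ, signals, the mean reads per bin of a domain, were compared only as percentiles within a list, where 100 is the strongest domain. Of the marker promoters for mESC, 9 of 10 were marked in the KO mESC list and 3, 8 and 9 of 10 at weeks 1, 2 and 3. In WT these markers were at 9, 7, 8 and 8. Of all promoters 57.0%, 57.0%, 64.5% and 65.8% were marked over the KO stages. The 6 cardiac markers were at 0, 6, 5 and 3 in KO and at 2, 6, 5 and 4 in WT. The 4 endoderm markers were at 1, 4, 4 and 4 in KO and at 2, 3, 4 and 3 in WT. The 4 blood and endothelial markers were at 1, 4, 3 and 3 in KO and at 2, 3, 3 and 3 in WT. The 3 matched neuroectoderm markers were at 2, 0, 3 and 3 in KO and at 3 throughout in WT. The 3 trophoblast markers were at 2, 1, 0 and 2 in KO and at 1 throughout in WT. Of 4 fibroblast markers, which feeder cells would carry, 3 were marked in mESC and at week 1 and all 4 at weeks 2 and 3 (Col1a1, Col1a2, Postn and Thy1), with the same counts in WT, and the part of feeder cells in the mESC list was not tested. The promoter of Uhrf1 itself was marked at every stage in KO, with domains of 16.9, 3.15, 5.25 and 9.60 kb, which says nothing of whether the protein is made. The promoter of Setd1a was also marked at every stage.

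The promoters of each course differed in their DNA. The sequences below are the 200 bases just upstream of the gene start, 5′ to 3′ on the gene's strand, with each CG in capitals because CpG content differed between the groups. They are the promoters chosen by the naming rule for always marked genes (Hist1h2af and Hist1h2bh, histone genes at chr13:23625575-23625774 on the plus and chr13:23635229-23635428 on the minus strand), for genes marked in mESC only (Izumo2, of the Izumo family of sperm proteins, chr7:51963913-51964112 plus, and Snd1, chr6:28424939-28425138 plus) and for genes marked at all 3 weeks but not in mESC (Etohi1, chr2:177757789-177757988 plus, and Samd9l, chr6:3349572-3349771 minus). Nanog (chr6:122657307-122657506 plus) and Tdgf1 (chr9:110848663-110848862 minus) show the gap at week 1 and Myh6 (chr14:55585765-55585964 minus) and Tnnt2 (chr1:137737252-137737451 plus) the mark at week 1 only. These last 4 were chosen after their values were seen. Coordinates are of mm9 (NCBIM37).
Hist1h2af: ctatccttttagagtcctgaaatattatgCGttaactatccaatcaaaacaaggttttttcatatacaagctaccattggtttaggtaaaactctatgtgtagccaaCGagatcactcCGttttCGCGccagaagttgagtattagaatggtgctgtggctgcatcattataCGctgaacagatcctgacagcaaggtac
Hist1h2bh: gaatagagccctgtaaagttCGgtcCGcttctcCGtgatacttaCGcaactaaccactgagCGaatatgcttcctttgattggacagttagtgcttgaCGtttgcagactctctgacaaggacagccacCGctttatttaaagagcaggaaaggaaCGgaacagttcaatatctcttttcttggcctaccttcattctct
Izumo2: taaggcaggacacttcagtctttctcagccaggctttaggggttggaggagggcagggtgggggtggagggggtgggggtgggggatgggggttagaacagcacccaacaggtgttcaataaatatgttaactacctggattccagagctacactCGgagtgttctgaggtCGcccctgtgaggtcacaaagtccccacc
Snd1: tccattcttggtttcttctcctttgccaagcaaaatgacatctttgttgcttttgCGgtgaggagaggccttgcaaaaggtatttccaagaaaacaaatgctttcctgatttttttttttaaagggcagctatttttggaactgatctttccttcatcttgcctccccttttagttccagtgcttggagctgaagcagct
Etohi1: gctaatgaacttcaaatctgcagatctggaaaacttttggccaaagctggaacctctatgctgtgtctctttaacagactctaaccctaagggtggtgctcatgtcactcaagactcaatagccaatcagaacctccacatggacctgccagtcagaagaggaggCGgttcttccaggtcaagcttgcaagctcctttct
Samd9l: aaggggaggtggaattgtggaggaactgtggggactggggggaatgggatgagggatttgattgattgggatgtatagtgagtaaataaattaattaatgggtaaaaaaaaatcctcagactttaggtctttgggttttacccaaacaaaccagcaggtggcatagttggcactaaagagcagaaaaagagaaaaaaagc
Nanog: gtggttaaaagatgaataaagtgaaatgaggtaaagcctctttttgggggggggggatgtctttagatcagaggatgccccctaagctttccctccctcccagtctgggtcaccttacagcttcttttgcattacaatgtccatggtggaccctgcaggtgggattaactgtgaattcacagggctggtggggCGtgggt
Tdgf1: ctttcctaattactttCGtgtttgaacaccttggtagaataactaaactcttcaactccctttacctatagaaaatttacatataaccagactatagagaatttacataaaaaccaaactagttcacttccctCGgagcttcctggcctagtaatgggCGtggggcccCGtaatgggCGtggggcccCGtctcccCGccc
Myh6: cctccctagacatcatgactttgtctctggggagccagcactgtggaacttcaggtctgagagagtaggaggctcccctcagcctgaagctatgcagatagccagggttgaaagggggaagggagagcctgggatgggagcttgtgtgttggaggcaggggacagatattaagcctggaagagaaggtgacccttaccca
Tnnt2: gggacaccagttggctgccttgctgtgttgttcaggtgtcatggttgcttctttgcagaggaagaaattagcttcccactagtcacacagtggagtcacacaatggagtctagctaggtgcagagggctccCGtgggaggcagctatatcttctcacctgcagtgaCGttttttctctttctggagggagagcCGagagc
The upstream stretch of Hist1h2af held 6 CG pairs and that of Hist1h2bh 8, against 2 in Izumo2, 1 in Snd1, 1 in Etohi1 and 0 in Samd9l. Nanog held 1 and Tdgf1 7, while Myh6 held 0 and Tnnt2 3. Single promoters do not stand for their group, so the whole groups were measured over 500 bp either side of the start, as the ratio of observed to expected CpG.

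Always marked promoters had a median CpG ratio of 0.744 (quartiles 0.617 to 0.850), and never marked promoters 0.175 (0.113 to 0.277). Promoters marked at all 3 weeks but not in mESC came next to the always marked, at 0.578 (0.376 to 0.746). Those that joined at week 2 or week 3 lay lower, at 0.416 and 0.398, and the promoters with a gap at week 1 at 0.448. Promoters marked in mESC only (0.265) and at week 1 only (0.213) lay closer to the never marked. The median of lost promoters, 0.265, was 0.532 when the classes came from lists of equal number. A ratio of at least 0.6 was reached by 77.2% of always marked, 46.3% of all-3-week, 29.2% of gap and 2.88% of week 1 only promoters, against 45.6% of all. The letters TATAAA, sought on both strands of the 200 upstream bases, were found at 10.1% of all promoters, 4.42% of always marked, 12.5% of week 1 only and 20.5% of never marked promoters. None of the 10 stretches printed above held them.

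**Figure D2:**
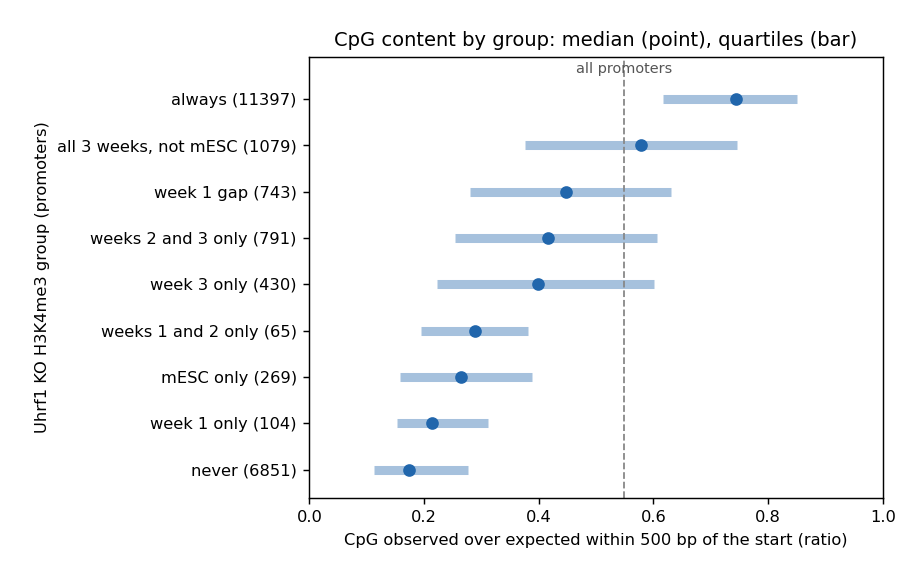
Median (points) and quartiles (bars) of the observed over expected CpG ratio within 500 bp of the start, for promoters grouped by their H3K4me3 course in Uhrf1 KO, with the number of promoters in brackets and the median of all promoters as a dashed line. Medians run from 0.744 for always marked to 0.175 for never marked promoters, and promoters marked at week 1 only (0.213) lie near the lower end.

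Of 79 ribosomal protein genes 75 were always marked and 77, 75, 78 and 79 were marked at the 4 stages, against 57.0% to 65.8% of all promoters. Of 361 Zfp zinc finger genes 285 were always marked. At the other end, 1058 of 1087 olfactory receptor genes and 85 of 97 keratin and keratin-associated genes were never marked. The broadest always marked domains, by their length rank in all 4 lists, lay over the histone cluster of chromosome 13, where Hist1h2af, Hist1h2bh, Hist1h3f, Hist1h3g and Hist1h4h shared 1 domain per stage. That domain measured 249.6 kb in mESC and 32.9, 67.9 and 76.8 kb at weeks 1, 2 and 3. Aurkb, a mitotic kinase, followed with 228.8, 41.65, 46.55 and 75.2 kb. Both loci were among the longest domains of their list at each stage, and their absolute length was greatest in the mESC list with its long bins. Histone genes of a cluster are near-identical copies, so reads may not tell them apart. In WT 11257 of the 11397 (98.8%, 98.6% to 99.0%) were always marked too, against 57.2% of all promoters.

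Among the enzymes that write H3K4 and DNA methylation, 16 of 22 promoters were always marked, including Dnmt1, Dnmt3b, Setd1a, Setd1b, Wdr5 and Rbbp5. In WT the count was 16 of 22 too, and of all promoters 51.0% were always marked in KO and 57.2% in WT. The gap was found at 3 of the 22 in KO and 2 in WT, against 3.32% and 1.52% of all promoters. Tet1, which oxidises 5-methylcytosine, and Dnmt3l, a cofactor of the de novo DNA methyltransferases, had the gap at week 1, as did Ash2l. With any transcript start counted, Ash2l was marked at every stage. In that count any marked start of the gene was enough at a stage, and the marked starts may differ between stages. Tet3 was gained at all 3 weeks. Dpy30, a COMPASS subunit, was lost by the gene start used here, but with any transcript start counted it was marked at every stage.

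The promoters of pluripotency genes showed the course with a gap at week 1. Of 20 core pluripotency genes, 20 were marked in KO mESC and 6, 19 and 20 at weeks 1, 2 and 3. In the WT lists, where 63.2%, 62.1%, 65.7% and 66.2% of all promoters were marked, the counts were 20, 11, 17 and 20. The gap course was found at 13 of the 20 in KO, against 3.32% of all promoters, and at 6 of 20 in WT, against 1.52%. The 13 were Nanog, Pou5f1, Tdgf1, Lefty1, Lefty2, Nodal, Gdf3, Foxd3, Utf1, Fgf4, Dppa2, Dppa4 and Dppa5a, named here, like other list members that were neither lost nor gained, after their values were seen. In a bulk library a mark carried by fewer cells and a weaker mark per cell cannot be told apart. The gap at core pluripotency genes was found at 10 to 13 of 20 in KO and 2 to 7 in WT under the other windows and domain selections tried, except that 4 in KO and 0 in WT remained with lists cut to equal covered length. The 6 that kept a domain at week 1 were Sox2, Sall4, Lin28a, L1td1, Trim71 and Zscan10, and these were always marked in WT as well.

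Nanog, a core factor of self-renewal, had a domain of 32.5 kb at percentile 89.0 of signal in mESC, none at week 1, one of 15.75 kb at percentile 60.4 at week 2 and one of 18.4 kb at percentile 81.1 at week 3. Pou5f1, which encodes Oct4, had domains of 36.4, 9.45 and 19.6 kb in mESC and at weeks 2 and 3, at percentiles 41.6, 51.3 and 80.1. Tdgf1, a Nodal co-receptor, had 26.0, 26.25 and 16.4 kb at percentiles 89.1, 42.8 and 83.6. These 3 were taken from the genes with the gap, so that only week 1 lacked the mark follows from the choice. In WT Nanog also lacked it at week 1, whereas Pou5f1 and Tdgf1 kept short domains there, of 1.60 kb at percentile 6.31 and 3.60 kb at percentile 48.0. Sox2 kept a 7.70 kb domain at percentile 25.0 at week 1, its lowest rank of the 4 stages, against 45.1, 55.5 and 90.0 in mESC and at weeks 2 and 3. L1td1, an RNA-binding protein gene of stem cells, went from percentile 93.5 in mESC to 5.04 at week 1 and was at 40.5 and 74.9 thereafter. Over all always marked promoters the median percentile was 55.3 in mESC and 68.7, 79.0 and 78.0 at weeks 1, 2 and 3. A higher rank at a later week therefore need not mean a stronger mark. At week 1 the nearest domain lay 4.56 kb from the start of Nanog, 7.67 kb from Pou5f1 and 583 kb from Dppa4.

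**Figure D3:**
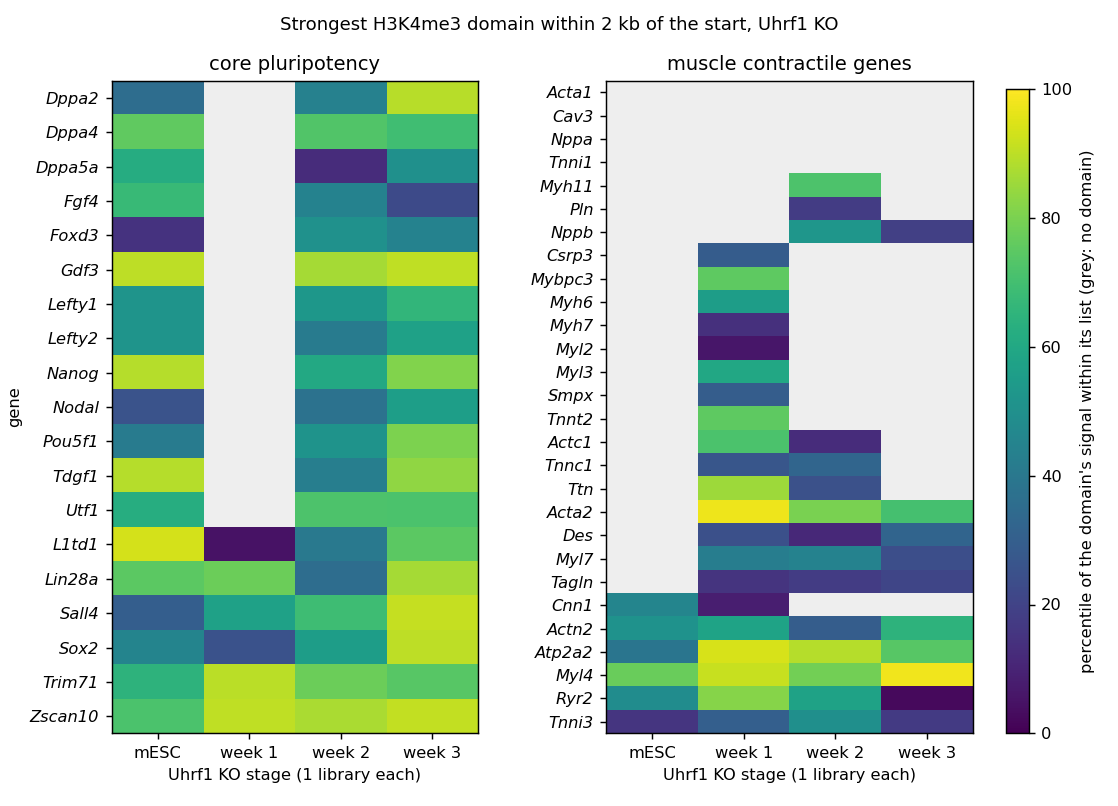
Percentile of signal, within its list, of the strongest H3K4me3 domain within 2 kb of the start in Uhrf1 KO, for the core pluripotency genes that had the gap or were always marked (left, 19 genes) and the 28 muscle contractile genes (right) at each stage, 1 library each. Grey means no domain. Of the pluripotency genes 13 are blank at week 1 and filled at the other stages, whereas 8 muscle genes are filled at week 1 alone.

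Naive pluripotency genes showed less of this. Of 19 matched genes 14, 10, 15 and 18 were marked over the stages in KO and 16, 14, 15 and 16 in WT. In KO these are 73.7%, 52.6%, 78.9% and 94.7%, beside 57.0%, 57.0%, 64.5% and 65.8% of all promoters. The gap was found at 4 of the 19 in KO, against 3.32% of all promoters, and at 1 in WT, against 1.52%. The 4 in KO were Prdm14, Zfp42, Nr5a2 and Fbxo15, although Nr5a2 was marked at every stage with any transcript start counted. Klf2, Klf4, Klf5, Tbx3 and Tet2 were among 9 that were always marked. Zfp42 (Rex1) had domains of 39.0 kb in mESC, none at week 1, 30.8 kb at week 2 and 32.4 kb at week 3. Tcl1 and Nr0b1 were gained at week 3 and Pecam1 at week 2, and with any transcript start counted Pecam1 was marked at every stage. Dppa3 was marked in mESC and again at week 3. Esrrb was never marked by its gene start and marked at every stage with any transcript start counted.

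Over all 743 gap promoters, the mESC domain had a median signal percentile of 27.7, against 55.3 for always marked promoters. The week 1 list covered the fewest bases of the 4, and with lists cut to equal covered length 79 promoters had the gap in place of 743, and 4 core pluripotency genes in place of 13. A Nanog summit of KO mESC lay within 2 kb of 9.69% of the 743 (7.77% to 12.0%) and of 2.75% of all promoters. Of always marked promoters 3.37% had one, a difference of 6.32 points (4.37 to 8.68). Sox2 summits lay within 2 kb of 33.5%, below the 44.2% of always marked promoters, a difference of -10.7 points (-14.1 to -7.09). This was above the 27.1% of all promoters. At week 1, when H3K4me3 was absent, 48.2% (44.6% to 51.8%) had an H3K27me3 domain within 5 kb in KO, against 16.6% of always marked promoters and 21.1% of all. In WT at week 1, where 500 of the 743 (67.3%) were marked with H3K4me3, the share with H3K27me3 was 49.8% (46.2% to 53.4%). Of the 13 core pluripotency promoters with the gap 6 had H3K27me3 at week 1, among them Lefty1, Lefty2, Nodal and Utf1, and 7, among them Nanog, Pou5f1 and Tdgf1, did not. In WT 447 of the 743 (60.2%) were always marked and 117 (15.7%) had the gap too, against 57.2% and 1.52% of all promoters. No start of a gap promoter lay in a Uhrf1 region of WT mESC, against 3.75% of all, 10.7% of never marked and 0.316% of always marked promoters. The difference from always marked promoters was -0.316 points (-0.437 to 0.206). The finding of 0 of 743 allows a share of up to 0.404% when the limit is set at 3 counts, or 0.514% by Wilson's method.

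Promoters marked at week 1 and no longer at week 3 numbered 197 in KO, or 0.881% of all promoters. They included genes of the contractile apparatus of muscle. Of 28 such genes 6 were marked in KO mESC and 21, 15 and 10 at weeks 1, 2 and 3, and in WT 12, 17, 19 and 13. In KO these are 21.4%, 75.0%, 53.6% and 35.7%, beside 57.0%, 57.0%, 64.5% and 65.8% of all promoters. The KO count of 15 at week 2 was 3 with domains above the median score and with lists of equal number, 5 with at least 50% of the window covered and 2 with lists cut to equal covered length. The course with a mark at week 1 and none at week 3 was taken by 12 of the 28 in KO and by 6 in WT, where 1.21% of all promoters took it. The 12 were 6.09% of the 197. A mark at week 1 only was found at 104 promoters in KO (0.465% of all) and 8 of the 28 muscle genes, namely Myh6, Myh7, Myl2, Myl3, Tnnt2, Mybpc3, Csrp3 and Smpx. In WT, where 0.384% of all promoters had it, it was found at 1 of the 28, Myh6. Ttn, Actc1 and Tnnc1 were marked at weeks 1 and 2, a course taken by 0.291% of all promoters in KO and 0.340% in WT. Tnnc1 was marked at every stage with any transcript start counted. Cnn1, a smooth muscle calponin, was lost after week 1. A mark at week 1 and none at week 3 was found at 8 to 12 of the 28 in KO and 3 to 7 in WT under the other settings tried, and at 19 in KO with lists cut to equal covered length.

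Tnnt2, cardiac troponin T, had a 7.70 kb domain at percentile 75.1 at week 1 in KO and none at the other 3 stages. In WT its promoter was marked at weeks 1 and 2, at percentiles 45.5 and 29.8. Myh6, the alpha cardiac myosin heavy chain, had an 18.55 kb domain at percentile 55.7 at week 1 in KO, and in WT it was marked at week 1 only, at percentile 30.9. Mybpc3, cardiac myosin-binding protein C, had a 2.45 kb domain at percentile 75.1 at week 1 in KO, whereas in WT it was marked in mESC and at weeks 1 and 2. Actc1, cardiac actin, had a 13.3 kb domain at percentile 71.6 at week 1 and a 2.1 kb domain at percentile 12.9 at week 2. Ttn, the giant spring protein of the sarcomere, was at percentiles 85.4 and 25.0 at those stages. These 5 were named after their values were seen, so that the mark was highest in rank or only present at week 1 follows from the choice.

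Not all muscle genes behaved this way. Acta2, smooth muscle actin, was gained at all 3 weeks at percentiles 97.4, 80.0 and 70.6, and Des, Tagln and Myl7 were gained at all 3 weeks too. Nppb was gained at week 2. Atp2a2, the calcium pump of the sarcoplasmic reticulum, Actn2, Myl4, Ryr2 and Tnni3 were always marked.

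Of 30 mesoderm and cardiac transcription factors 17, 21, 23 and 25 were marked over the stages in KO and 22, 25, 22 and 24 in WT. In KO these counts are 56.7%, 70.0%, 76.7% and 83.3%, beside 57.0%, 57.0%, 64.5% and 65.8% of all promoters. Always marked were 14, among them Isl1, Hand1, Hand2 and Tbx20. The 8 gained were Gata4, Tbx5, Foxf1a, Foxc2, Tcf21 and Irx4 at all 3 weeks, Tbx1 at week 2 and Mesp1 at week 3. Gata4 had domains of 7.70, 9.80 and 8.40 kb at percentiles 15.1, 28.5 and 35.9. Nkx2-5, an early heart factor, had a 19.25 kb domain at percentile 47.4 at week 1, a 2.45 kb domain at percentile 5.65 at week 2 and none in mESC or at week 3, whereas in WT it was marked at every stage. T and Mixl1, genes of the primitive streak, were marked in mESC and at week 3 only.

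More blood and endothelial genes were marked at week 1 than in mESC in KO. Of 25 genes 9, 20, 20 and 14 were marked over the stages in KO and 16, 21, 18 and 17 in WT. In KO these are 36.0%, 80.0%, 80.0% and 56.0%, beside 57.0%, 57.0%, 64.5% and 65.8% of all promoters. In WT 63.2%, 62.1%, 65.7% and 66.2% of all promoters were marked. The KO count at week 2 was 10 with lists of equal number and 4 with lists cut to equal covered length. The WT counts there were 13 and 8. Where a minimum part of the window had to be covered, the week 1 count was 12 in KO and 18 in WT. The gained genes were Tal1, Lyl1, Cd34, Cdh5, Fli1, Esam and Sox7 at all 3 weeks and Erg at weeks 2 and 3. Erg was marked at all 3 weeks with any transcript start counted. Tal1, a master factor of blood formation, had domains of 12.6, 10.5 and 17.2 kb at percentiles 31.3, 25.5 and 4.88, and in WT it was always marked. The embryonic globin genes Hbb-y and Hbb-bh1 were marked at week 1 only. Hba-x, the embryonic alpha globin, and Hba-a1 were lost, with the mark in mESC and at week 1 (Hba-x) or to week 2 (Hba-a1). Both were reached by a mESC domain of 40.3 kb at percentile 15.4, and the alpha globin genes are close copies whose reads may be shared. Gata2, Runx1, Emcn and Tie1 were marked at weeks 1 and 2. Runx1 had 2.80 kb at percentile 67.1 and 1.75 kb at percentile 14.5. With any transcript start counted Runx1 was marked at every stage and Gata2 at all 3 weeks. Altogether 8 of the 25 took the course with a mark at week 1 and none at week 3, against 4 in WT. Of all promoters 0.881% took it in KO and 1.21% in WT.

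Of 29 neural transcription factors 14 were marked in KO mESC and 11, 23 and 25 at weeks 1, 2 and 3, and in WT 24, 24, 22 and 26 were marked. Of all promoters 57.0% were marked in KO mESC and 63.2% in WT mESC, and 57.0% and 62.1% at week 1, and whether the neural genes differed beyond this was not tested. Always marked were 6 in KO and 18 in WT, among the 6 Otx2, Nkx6-1 and Pou3f2. At week 1 the count in KO lay between 2 and 14 under the other settings tried and in WT between 15 and 25. Among the 11 gained in KO were Lhx2 and En2 at all 3 weeks, Pax3, Pax6, Dlx1, Emx1, Zic1 and Olig2 at weeks 2 and 3, and Pax7 and Six3 at week 3. With any transcript start counted Pax6 was marked at every stage and Six3 at weeks 2 and 3. A further 7 had the gap at week 1, Neurod1, Neurog2, Nkx2-2, Lmx1a, Hes5, Emx2 and Gbx2, and all 7 had an H3K27me3 domain within 5 kb at week 1. In WT the gap was found at 1 of the 29. Of all promoters 3.32% had it in KO and 1.52% in WT. Neurod1, a proneural factor, had domains of 11.7, 5.25 and 9.60 kb in mESC and at weeks 2 and 3 at percentiles 32.1, 30.3 and 32.3. In WT it was marked at every stage. H3K27me3 lay within 5 kb of 8, 29, 28 and 27 of the 29 in KO, against 7.57%, 21.1%, 24.1% and 19.5% of all promoters. In WT it lay within 5 kb of 27, 29, 27 and 29, against 34.9%, 20.5%, 29.8% and 33.2% of all promoters. The KO mESC list of H3K27me3 held 722 domains and the WT one 8161. Both marks were called at 11 promoters at week 1 in KO and 24 in WT, and H3K27me3 without H3K4me3 at 18 in KO and 5 in WT. Over all 22367 promoters the direction was the same at week 1. There both marks were called at 2394 in KO and 3410 in WT, and H3K27me3 without H3K4me3 at 2330 and 1175. Whether the neural genes differed beyond this was not tested.

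Of 23 neuronal and glial structural genes 16 were marked in KO mESC and 8, 14 and 16 at weeks 1, 2 and 3, beside 16, 15, 14 and 18 in WT. In KO these are 69.6%, 34.8%, 60.9% and 69.6%, beside 57.0%, 57.0%, 64.5% and 65.8% of all promoters. The gap was found at 6 of the 23 in KO, against 3.32% of all promoters, and at 0 in WT, against 1.52%. The 6 were Tubb3, Gad2, Stmn2, Nefl, Gfap and Mbp. Nes, Ncam1, Snap25 and Syt1 were always marked. Slc17a6, a vesicular glutamate transporter, was lost after mESC in both genotypes, and Elavl3 was gained at week 3.

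The Hox genes, which pattern the body axis, were nearly all marked by the later stages. Of 39, 19 were marked in KO mESC and 22, 37 and 36 at weeks 1, 2 and 3, and in WT 30, 29, 31 and 37. In KO these are 48.7%, 56.4%, 94.9% and 92.3%, beside 57.0%, 57.0%, 64.5% and 65.8% of all promoters. The 18 gained held 7 at all 3 weeks, such as Hoxd10, Hoxd13 and Hoxa10, and 11 at weeks 2 and 3, such as Hoxa9, Hoxa11, Hoxc9 and Hoxc10. Hoxa9 lay in domains of 86.1 kb at week 2 and 107 kb at week 3 that also reached Hoxa6, Hoxa7, Hoxa10, Hoxa11 and Hoxa13. All 39 had H3K27me3 within 5 kb at every stage in both genotypes, the KO mESC list included. Hoxc4 was lost by its gene start and marked at every stage with any transcript start counted.

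Matrix and mesenchymal genes were marked in greater number at the later stages. Of 20 such genes 8, 12, 20 and 20 were marked in KO and 10, 13, 20 and 20 in WT. The share of all promoters in KO was 57.0%, 57.0%, 64.5% and 65.8%. Col3a1, Col5a1, Postn, Tgfbi and Pdgfrb were gained at all 3 weeks, and Dcn, Lum, Mgp, Bgn, Lox, Fbn1 and Col6a1 at weeks 2 and 3. Fbn1 was marked from week 1 with any transcript start counted. Dcn, the proteoglycan decorin, had domains of 11.9 and 9.60 kb at percentiles 86.7 and 63.9 at weeks 2 and 3, and Col3a1 was at percentiles 52.5, 94.3 and 84.7 at the 3 weeks. For 6 of the genes gained at weeks 2 and 3, Dcn, Lum, Mgp, Bgn, Lox and Col6a1, the WT course was the same.

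Of 14 endoderm transcription factors 8, 9, 10 and 12 were marked in KO and 10, 11, 12 and 12 in WT, and the share of all promoters in KO went from 57.0% in mESC to 65.8% at week 3. In KO Foxa1 and Foxa2 were gained at all 3 weeks, Hnf4a at week 2 and Cdx1 at week 3. Foxa2 had 7.00, 14 and 15.2 kb at percentiles 3.53, 37.5 and 50.3, and in WT it was always marked. Of 20 hepatic and yolk sac genes 4, 10, 9 and 12 were marked in KO and 7, 10, 14 and 14 in WT. Afp, Rbp4, Ttr and Cubn were gained at all 3 weeks and F2, Fgb and Amn at week 3.

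Germline genes held silent by DNA methylation stayed mostly unmarked. Of 25 matched genes 5, 1, 7 and 10 were marked over the stages in KO and 8, 3, 5 and 5 in WT, and 15 were never marked in each. Of all promoters 57.0%, 57.0%, 64.5% and 65.8% were marked over the KO stages. Never marked were 30.6% of all in KO and 28.7% in WT. Gained in KO were Dazl, Tex19.1 and Tuba3a at weeks 2 and 3 and Hormad1 and Fkbp6 at week 3. Sycp3, Rnf17 and Hormad2 had the gap at week 1. Of 13 matched genes of the 2-cell stage, many of them near-identical copies, 1, 1, 4 and 2 were marked, with Tdpoz4 gained at week 2. Of 14 trophoblast genes 5, 6, 6 and 7 were marked, with Krt8 gained at all 3 weeks and Krt7 at week 2.

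**Figure D4:**
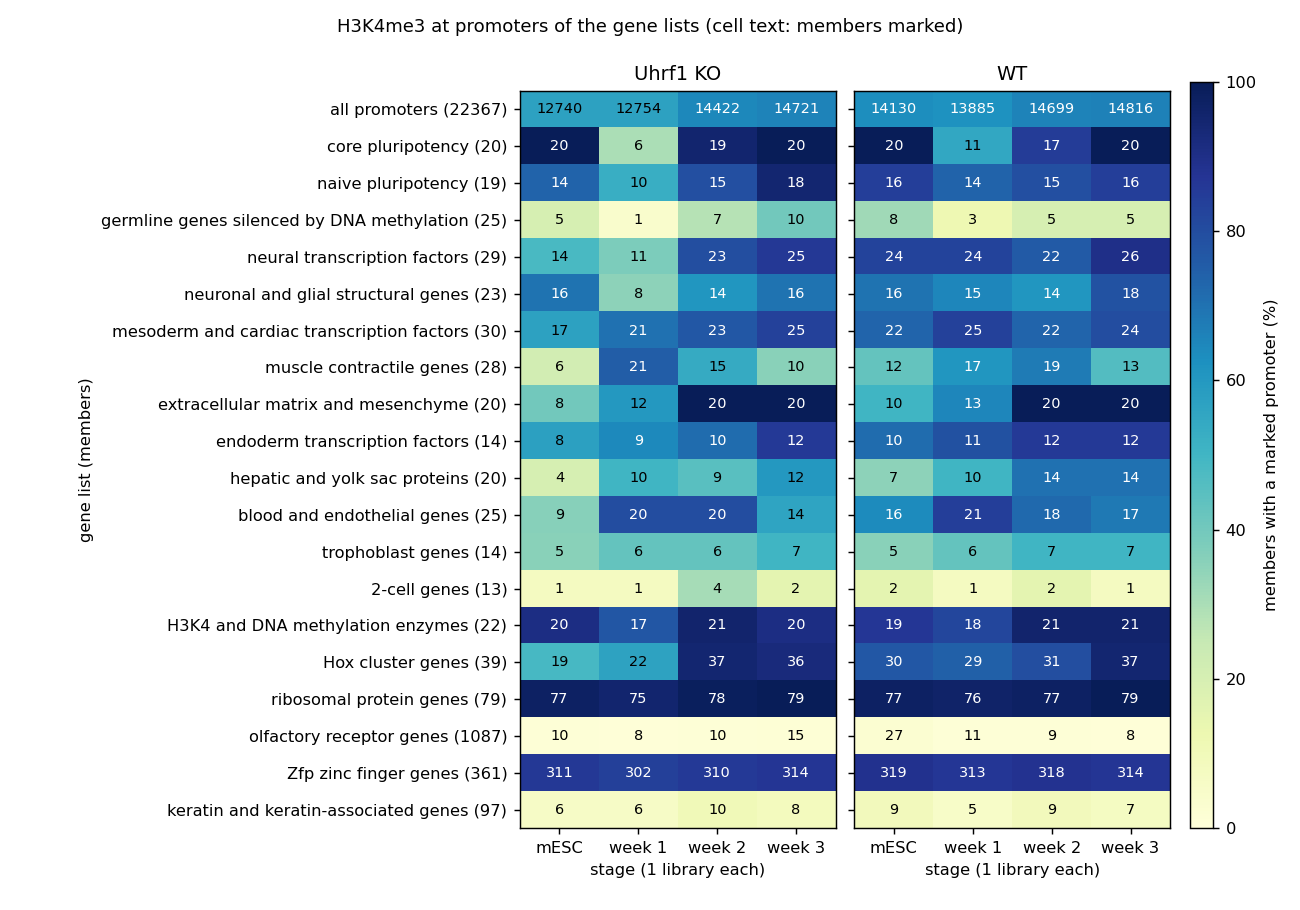
Share of the members of each gene list with a marked promoter (colour, percent) and their number (cell text) at each stage in Uhrf1 KO (left) and WT (right), 1 library per stage. Core pluripotency genes stand at 6 of 20 at week 1 in KO, muscle contractile genes at 21 of 28 at week 1, and neural transcription factors stand at 14 and 11 of 29 in the first stages of KO against 24 and 24 in WT.

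The 2300 gained promoters as a whole differed from the always marked ones in marks that the rule did not use. In WT mESC 57.3% (55.3% to 59.4%) had an H3K27me3 domain within 5 kb, against 23.6% of always marked promoters, a difference of 33.7 points (31.5 to 35.9). Of all promoters 34.9% had one there, and of never marked promoters 44.7%. In KO the share of all promoters was 7.57% in mESC and 21.1%, 24.1% and 19.5% at weeks 1, 2 and 3. The KO share of gained promoters was 12.3% in mESC and 41.7%, 44.0% and 35.3% at weeks 1, 2 and 3, against 6.53%, 16.6%, 15.2% and 11.9% of always marked promoters. The KO mESC H3K27me3 list held 722 domains, against 3722 to 6600 at the later weeks and 8161 in WT mESC, and its shares for both groups were the lowest of the 4 KO stages. A start inside an H3K9me3 domain of KO mESC was found at 25.8% of gained and 38.3% of always marked promoters, a difference of -12.5 points (-14.5 to -10.5). In WT mESC the order was the other way, at 22.1% and 14%. Over all promoters the share was 38.1% in KO mESC and 24.3% in WT mESC. The H3K9me3 list of KO mESC held 3118 domains over 1086 Mb and that of WT mESC 11285 over 988 Mb. The part of this difference between the lists in the shares was not tested. Uhrf1 regions of WT mESC held 1.57% of gained starts, 0.316% of always marked, 10.7% of never marked and 3.75% of all starts.

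**Figure D5:**
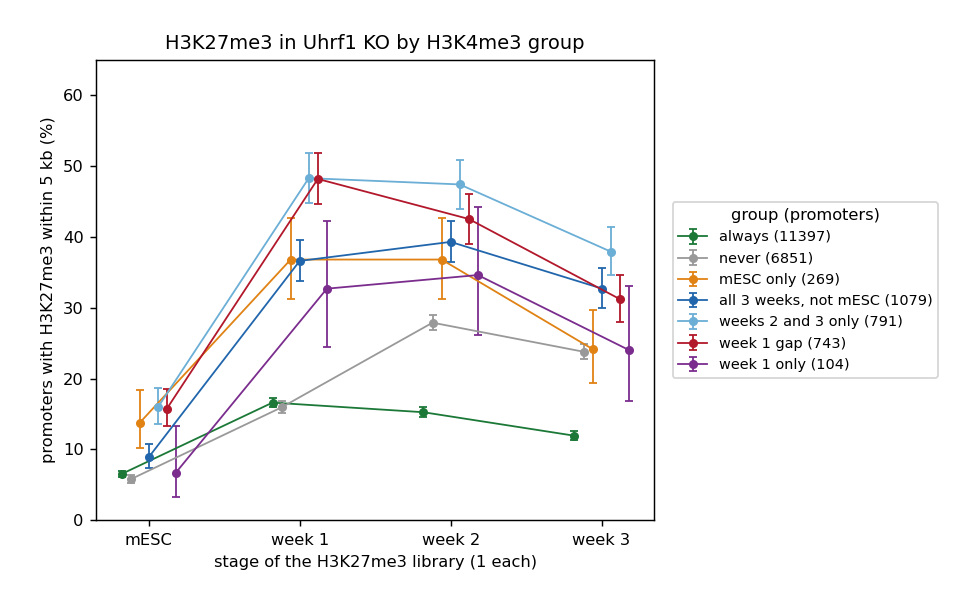
Share of promoters with an H3K27me3 domain within 5 kb in Uhrf1 KO at each stage, by H3K4me3 course, with Wilson 95% intervals as bars and the number of promoters in brackets. At week 1 the promoters with a gap stand at 48.2% and those marked at weeks 2 and 3 only at 48.3%, above the always marked at 16.6%. Over all promoters, not drawn, the share at week 1 was 21.1%.

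By the naming rule the gained promoters of strongest signal over all 3 weeks were Etohi1, Samd9l, Zfp772, Lmbrd1, Fam187a, Adam5, Tmem176a and Tmem176b. Etohi1 was at percentiles 99.9, 98.8 and 98.9 and Samd9l, an interferon-response gene, at 96.5, 99.8 and 98.5. Tmem176a and Tmem176b are neighbours and shared their domains, of 2.45, 7.35 and 5.20 kb. Lmbrd1, Fam187a and Adam5 were always marked in WT and the other 5 had the same course there. Over all 1079 promoters marked at all 3 weeks in KO but not in mESC, 683 (63.3%, 60.4% to 66.1%) were marked in WT mESC and 643 (59.6%) at every WT stage. These shares were near those of all promoters, 63.2% and 57.2%.

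The 297 lost promoters numbered 1640 with lists of equal number and 1218 with lists cut to equal covered length. By the rule the strongest of those marked in mESC only were Izumo2 (7.80 kb, percentile 98.9), Snd1, Olfr368, Il17f, Alox12b, Lenep, Cldn21 and Nfyc. Snd1 and Nfyc, a nuclease and a CCAAT-binding factor, were marked at every stage with any transcript start counted. Alox12b, a lipoxygenase, was reached by the same 228.8 kb domain as Aurkb. The start lay inside the mESC domain at 60.6% of lost promoters, against 97.9% of always marked ones, and the domain also reached another, always marked start at 54.9% and 50.1%. In WT 108 of the 297 (36.4%, 31.1% to 42.0%) were lost too, 80 (26.9%) were never marked and 177 (59.6%) were marked in mESC. Of all promoters 2.45% were lost in WT, 28.7% never marked and 63.2% marked in mESC. A Sox2 summit lay within 2 kb of 11.8% of lost promoters and of 27.1% of all. Of always marked promoters 44.2% had one, a difference of -32.4 points (-35.7 to -28.1).

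Domains were compared between stages by an overlap of at least 1 bp. Of the KO mESC domains 82.8% (82.1% to 83.4%) overlapped a domain of week 1, 95.2% of week 2 and 96.3% of week 3. Covered over at least 50% of their length were 30.0%, 61.2% and 70.7% at weeks 1, 2 and 3. Of those near a gene start 94.8% overlapped at week 1 and 99.4% at week 3, and of the 3070 distal ones 49.8% and 87.7%. Of the promoters marked in mESC 90.0% (89.5% to 90.5%) were marked at week 1, 95.9% at week 2 and 97.2% at week 3. In the reverse direction 89.9%, 84.7% and 84.1% of promoters marked at weeks 1, 2 and 3 were marked in mESC. Weeks 2 and 3 shared 14010 promoters, which were 97.1% of those marked at week 2 and 95.2% of those at week 3. Domains away from gene starts made up 3070 of 11509 in mESC and 20543 of 32702 at week 2, and the share near a start was 73.3% in mESC and 58.9%, 37.2% and 41.3% at weeks 1, 2 and 3.

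Against WT, the share of always marked promoters differed by -6.24 points in KO (51.0% against 57.2%, interval of the difference -7.16 to -5.32). Gained promoters differed by 4.68 points (10.3% against 5.60%, 4.18 to 5.18), lost promoters by -1.12 points (1.33% against 2.45%, -1.38 to -0.871), gap promoters by 1.81 points (1.52 to 2.09) and promoters never marked by 1.94 points (1.09 to 2.79). Interrupted courses were at 6.80% in KO and 6.06% in WT. Within the gained class, promoters marked at all 3 weeks were at 4.82% in KO and 2.79% in WT, those marked at weeks 2 and 3 at 3.54% and 1.78%, and those marked at week 3 only at 1.92% and 1.04%. Promoters marked in mESC only went the other way, at 1.20% in KO and 1.97% in WT. These signs did not hold under every setting, and with lists cut to equal covered length the difference in always marked promoters was 1.79 points and that in gap promoters -0.0894 points. With lists of equal number the difference was -0.425 points for always marked and 0.519 points for gained promoters. Of the promoters marked in KO 97.6% were marked in the WT list of the same stage in mESC, and 97.9%, 96.5% and 96.9% at weeks 1, 2 and 3. Of those marked in WT 88.0%, 90.0%, 94.7% and 96.3% were marked in KO.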

How the data were processed

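H3K4me3 ChIP-seq domains were analysed as the authors deposited them. Reads had been aligned to mm9 with Bowtie2 2.1.0, and domains had been called against the matched input with RSEG. The deposited signal column is the mean read value of the bins of a domain, and bin length was set per list by the caller. The deposited score column is a sum over bins, so it grows with length (Spearman rho over domains 0.984 to 0.989 by list). Deposited MACS summits of Oct4, Sox2 and Nanog carry a height in the signal column, which was not used, and deposited Uhrf1 regions are 10 kb windows. H3K27me3 and H3K9me3 domains were of the same kind as H3K4me3, and the 8 inputs were not analysed here.

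Promoters were the starts of 22367 protein-coding gene records of the mm9 annotation with 2 kb either side, and an overlap of at least 1 bp with a domain counted as marked. The 5 classes follow from marked or unmarked at 4 stages. H3K27me3 was sought within 5 kb. CpG ratios were computed over 500 bp either side of the start. Named genes are the 6 always marked with the longest domains by their lowest rank over the lists, the 8 marked in mESC only with the strongest signal, the 8 marked at all 3 weeks but not in mESC with the highest lowest signal rank, list members that were lost or gained with up to 4 others per list, and Uhrf1 and Setd1a. Further members were named after their values were seen, and a few list members, though counted, are not reported here by name. The members and the 19 gene lists were chosen with earlier results of these data known. Each group was 1 library, so there was no test and no replicate error, and read totals were not used. Intervals are at the 95% level and cover counting error only. Scripts used Python 3.11.15, numpy 2.4.6, scipy 1.17.1 and pandas 2.3.3 and were tested on simulated data. Alternatives were windows of 1 and 5 kb, a window or domain covered to at least 50%, domains above the median score, lists of equal number, starts of any transcript and, chosen after seeing the data, lists of equal covered length.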

Additional observations from a re-analysis of the deposited data

Results flagged for a closer look

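In 4 measures KO and WT moved in opposite directions between neighbouring stages, and with 1 library per stage none of these differences was tested. From mESC to week 1 the number of marked promoters differed by 14 in KO, from 12740 to 12754, and by -245 in WT, from 14130 to 13885. The opposite directions did not hold with a window of 1 kb (12557 to 12446 in KO and 13945 to 13679 in WT), with at least 50% of the window covered (12230 to 10720 and 13623 to 12607) or with lists of equal number (12740 to 11235 and 13215 to 12077), where both counts were lower at week 1. With lists cut to equal covered length both were higher at week 1, from 3784 to 12754 in KO and from 3894 to 8499 in WT. From week 2 to week 3 the covered length differed by 11.2 Mb in KO and by -43.8 Mb in WT. From week 1 to week 2 the count of marked muscle contractile genes differed by -6 in KO, from 21 to 15, and by 2 in WT, from 17 to 19. With lists of equal number the counts went from 16 to 3 in KO and from 12 to 4 in WT, and with lists cut to equal covered length from 21 to 2 and from 5 to 1, so that both were lower at week 2. Over the same interval the count of marked neural transcription factors differed by 12 in KO, from 11 to 23, and by -2 in WT, from 24 to 22. With lists cut to equal covered length both counts were lower at week 2, from 11 to 5 in KO and from 15 to 4 in WT.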

How the results depend on the processing

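No paired analysis was possible because each genotype and stage holds 1 library. For the same reason no replicate could be left out, and of the lists the one of week 2 was left out as a whole. Scores grow with length, so the selections by score keep the longest domains. With lists cut to equal covered length, chosen after seeing the data, 3784 promoters were marked in mESC, 5994 at week 2 and 5533 at week 3, and 1922 were always marked, 1218 lost, 7917 interrupted, 2185 marked at all 3 weeks but not in mESC, 79 with the gap and 5245 at week 1 only. Of the mESC promoters 89.1%, 61.6% and 67.0% were then marked at weeks 1, 2 and 3, and KO minus WT was 1.79 points for always (a reversal), -0.429 for lost, 0.823 for gained and -0.0894 for the gap (a reversal). With domains above the median score 6975 were always marked, 4463 gained, 2718 marked at all 3 weeks but not in mESC and 1209 had the gap, the shares of mESC promoters were 78.5%, 92.7% and 94.6% and of mESC domains 81.7%, 96.4% and 96.6%, and KO minus WT was -1.47 points for lost, 6.37 for gained and 0.416 for the gap. With at least 50% of the window covered 521 were lost, 467 marked in mESC only, 567 at all 3 weeks but not in mESC, 1252 with the gap and 2325 interrupted, the shares of mESC promoters were 81.6%, 91.8% and 94.8%, and KO minus WT was -7.58 points for always, -1.93 for lost, 3.51 for gained and 3.48 for the gap. With lists of equal number 1640 were lost, 662 gained, 2602 interrupted, 933 marked in mESC only, 248 at all 3 weeks but not in mESC and 261 at week 1 only, the shares of mESC promoters were 83.0%, 79.0% and 85.8% and of mESC domains 71.6%, 69.8% and 73.9%, and KO minus WT was -0.425 points for always, -1.61 for lost, 0.519 for gained and 1.39 for the gap. Classes from lists of equal number had H3K27me3 at week 3 at 9.86% of always marked, 42.7% of gained and 25.8% of gap promoters, and median CpG ratios of 0.764 (always), 0.574 (gained), 0.532 (lost) and 0.537 (gap). Over 1 kb either side the CpG ratios were 0.635, 0.420, 0.237 and 0.382. H3K27me3 within 2 kb was found at 10.4% of always marked promoters at week 3. The share of mESC promoters kept at weeks 1 and 2 was 89.2% and 95.4% with a window of 1 kb, that at weeks 1, 2 and 3 was 91.0%, 96.8% and 97.8% with 5 kb and 91.0%, 96.4% and 97.6% with any transcript start. Of the mESC domains 30.0%, 61.2% and 70.7% were covered to at least 50% at weeks 1, 2 and 3. Without the week 2 list 169 promoters were marked at week 1 only. The cause of these shifts was not tested beyond what each selection removes by its making. A further 81 values of the same results stayed within 1.5 times for counts or within the interval of the reported value. Of the values for gene lists and for WT promoter counts 259 stayed within 1.5 times and 84 did not, 40 of them with lists of equal covered length.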
